A study of Homo sapiens with 2 samples.

Results

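Star-arm probes on a small RNA array were examined in HepG2, a human hepatocellular carcinoma cell line, after exposure to TCDD (a persistent dioxin and a strong ligand of the aryl hydrocarbon receptor, a transcription factor). A star name marks the arm of a miRNA hairpin that older catalogues took for the minor product. The 129 probes were chosen by name, as human star-arm probes outside the main miRNA clusters, from 155 human star-arm names and 718 probe names in all. One array held RNA of cells labelled control, with no vehicle or time named. The other, called the TCDD array here, held RNA of cells labelled as exposed to TCDD at 10 nM for 48 h, and both labels give the same line and growth medium. Since each group was a single array, nothing measures the spread between replicates, so no difference could be tested and none is called significant. Every direction relies on the labels being right.

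A miRNA hairpin is cut by Dicer into a duplex of its arms. One strand, the guide, is usually loaded into an Argonaute protein and pairs with target mRNAs through its seed, bases 2 to 8 from its 5′ end. The opposite strand, the star or passenger, is usually degraded, although some star arms are loaded and repress targets of their own, and the dominant arm can differ between tissues. A star arm and its guide come from the same precursor molecule, so the transcript feeds both, while loading and decay act on each strand alone.

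The values are deposited log2 fluorescence. Values of 100 or less on the linear scale, 6.64 on the log2 scale, count as undetected here and were raised to this floor first; a difference is the TCDD array minus control. The smallest deposited value was 5.64 on both arrays, shared by 343 names on the control array and 257 on the other. Brightness depends on the probe as well as on the RNA. Where levels of different probes are set side by side, they describe signal and not amounts of RNA. The amount of RNA per cell was not measured. Of the hepatocyte miRNAs used as a check, miR-192 and miR-194 were bright, miR-122a was dim at 7.60 and 7.59, and miR-148a was undetected. None of the 6 blood, 5 muscle or 1 endothelial marker miRNAs on the array was detected. The neuron list gave 1 of 3, miR-128a, and the fibroblast and smooth muscle list gave 2 of 2, miR-143 and miR-145.

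The sequences below belong to star arms that were detected while the guide-arm probe of the same hairpin was not, and they are shown because several results below turn on these arms. They are RefSeq mature sequences on GRCh38.p14, 5′ to 3′, with the seed in capitals. Of the 129 probes, 118 were matched to a RefSeq mature sequence, and of the 30 detected ones 26 were.
miR-363*: cGGGUGGAucacgaugcaauuu
miR-302d*: aCUUUAACauggaggcacuugc
miR-302c*: uUUAACAUggggguaccugcug
miR-92b*: aGGGACGGgacgcggugcagug
miR-135b*: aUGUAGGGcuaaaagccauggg
miR-7-1*: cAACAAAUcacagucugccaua
miR-187*: gGCUACAAcacaggacccgggc
miR-33b*: cAGUGCCUcggcagugcagccc
miR-15a*: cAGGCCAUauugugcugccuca
The guide arms of the first and second hairpins are given for comparison.
miR-363: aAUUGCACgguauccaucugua
miR-302d: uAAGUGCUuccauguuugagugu
The miR-363* sequence lies at chrX:134169425-134169446 on the minus strand, within the span of the long noncoding RNA gene MIR106AHG. That of miR-302d* lies at chr4:112648045-112648066 on the minus strand, within the spans of LARP7 and the long noncoding RNA gene MIR302CHG. Here and below, gene spans were matched by position on either strand, so a span does not by itself name the host transcript. miR-92b* is at chr1:155195196-155195217 on the plus strand. miR-150* showed the same pattern.

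Of the 129 star-arm probes, 30 (23.3%) were above the floor on at least 1 array, against 212 of the other 589 names (36.0%). A total of 28 were above it on the control array, 29 on the TCDD array and 27 on both. Of the 99 undetected probes, 55 had the smallest deposited value on both arrays. The threshold fell inside a run of close values. Just inside it were miR-302c* (a fluorescence of 100.2 in control and 92.7 on the TCDD array), miR-185* (100.2 and 104.0) and miR-135b* (99.2 and 108.1). Just outside were miR-744* (90.4 and 96.8), miR-148a* (64.8 and 89.6) and miR-593* (88.4 and 88.6). Detection of single probes at this level therefore turned on a few units of fluorescence.

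Guide-arm probes were named on the array for 127 of the 129 star arms. In 20 of these pairs both arms were detected, in 10 the star arm alone, in 39 the guide arm alone, and in 58 neither. The 127 pairs held 119 different guide probes, because 16 star arms share a guide probe with another copy of their hairpin. Of the 119, 54 (45.4%) were detected. With the floor raised to the 75th percentile of each array, the numbers were 8 with both arms, 5 with the star arm alone, 47 with the guide arm alone and 67 with neither.

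**Figure D1:**
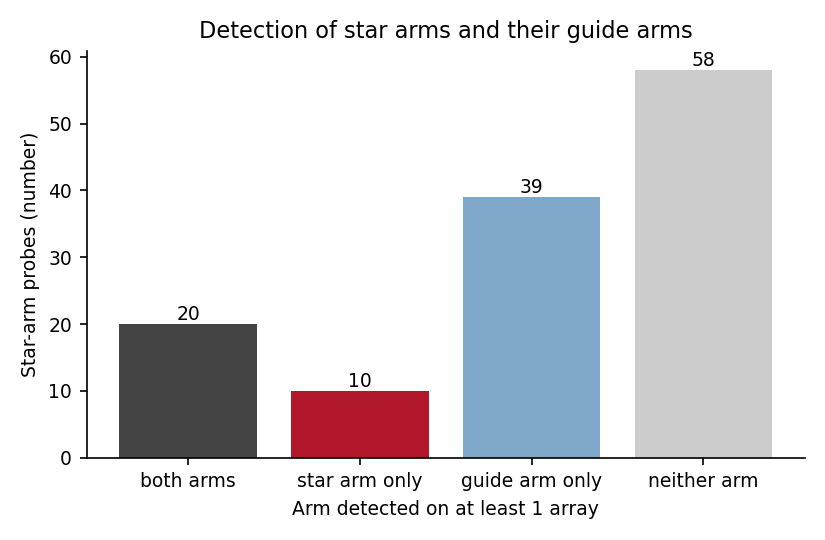
Number of star-arm probes (vertical axis) by which arm of the hairpin was above the floor on at least 1 array (horizontal axis), over the 127 probes with a guide-arm probe. The guide arm alone was detected for 39 and the star arm alone for 10.

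The star arm alone was detected for the hairpins of miR-363, miR-302c, miR-302d, miR-135b, miR-150, miR-92b, miR-187, miR-7-1, miR-33b and miR-15a. In 4 of the 10, those of miR-363, miR-302c, miR-302d and miR-135b, the guide-arm probe had the smallest deposited value on both arrays. In the other 6 the guide lay between that value and the floor. These included miR-92b, whose guide probe was at 6.63 on both arrays, about 1 unit of fluorescence under the floor.

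miR-363* was at 14.58 in control and 14.75 on the TCDD array, with a difference of 0.16 whose sign depended on the scaling (0.03 with the level trend removed, -0.06 after quantile normalization). Its guide miR-363, which shares its seed with miR-92a, was at 5.64 on both arrays. The hairpin is the last of the miR-106a to miR-363 cluster on chromosome X, a paralog of the proliferation-linked miR-17~92 cluster. Of the 6 star arms of this cluster, miR-363* and miR-92a-2* were detected, while miR-106a*, miR-18b*, miR-20b* and miR-19b-2* were not. The guide probe was detected for each of the other 5 hairpins, but the miR-19b and miR-92a probes also read copies in the miR-17~92 cluster. The miR-20b sequence is close to that of miR-20a in miR-17~92, whose probe was at 11.59 in control and 11.87 on the TCDD array. Whether the miR-106a, miR-18b and miR-20b probes also read paralogs in miR-17~92 was not tested. miR-92a-2* was at 7.26 in control and 7.11 on the TCDD array.

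The miR-302 cluster is a set of miRNAs characteristic of embryonic stem cells. None of its 5 guide probes with a star partner (miR-302a, b, c, d and miR-367) was detected. Among the star arms, miR-302d* was at 8.21 in control and 7.89 on the TCDD array, 1.25-fold lower. miR-302c* was at 6.65 and 6.53, so it was above the floor in control alone and by less than 1 unit. The star arms of miR-302a, miR-302b and miR-367 were undetected. The miR-302b* and miR-302d* sequences have the same seed, and they share a stretch of 13 bases.

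Other star arms with an undetected guide were dim. miR-150*, from the hairpin of a miRNA best known in lymphocytes, was at 8.17 in control and 7.97 on the TCDD array, against 5.88 and 5.72 for the guide probe. miR-92b* was at 8.70 and 8.89. miR-15a*, whose guide represses BCL2, was at 7.22 and 7.51, with its guide at 6.31 and 6.38. With the floor at the 75th percentile, miR-150* and miR-92b* were above it on both arrays and miR-15a* on the TCDD array alone, by less than 0.1, while the 3 guides were under it on both. miR-7-1*, whose guide restrains epidermal growth factor receptor signalling, was at 7.07 and 6.73, 1.27-fold lower, with the shared miR-7 guide probe at 5.78 and 5.95. miR-187* was at 7.36 and 7.28, and its guide at 6.0 and 6.25. miR-135b* was at 6.63 and 6.76, above the floor on the TCDD array alone. None of the 10 differed by as much as 1.5-fold, and their differences ran from -0.34 to 0.29.

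**Figure D2:**
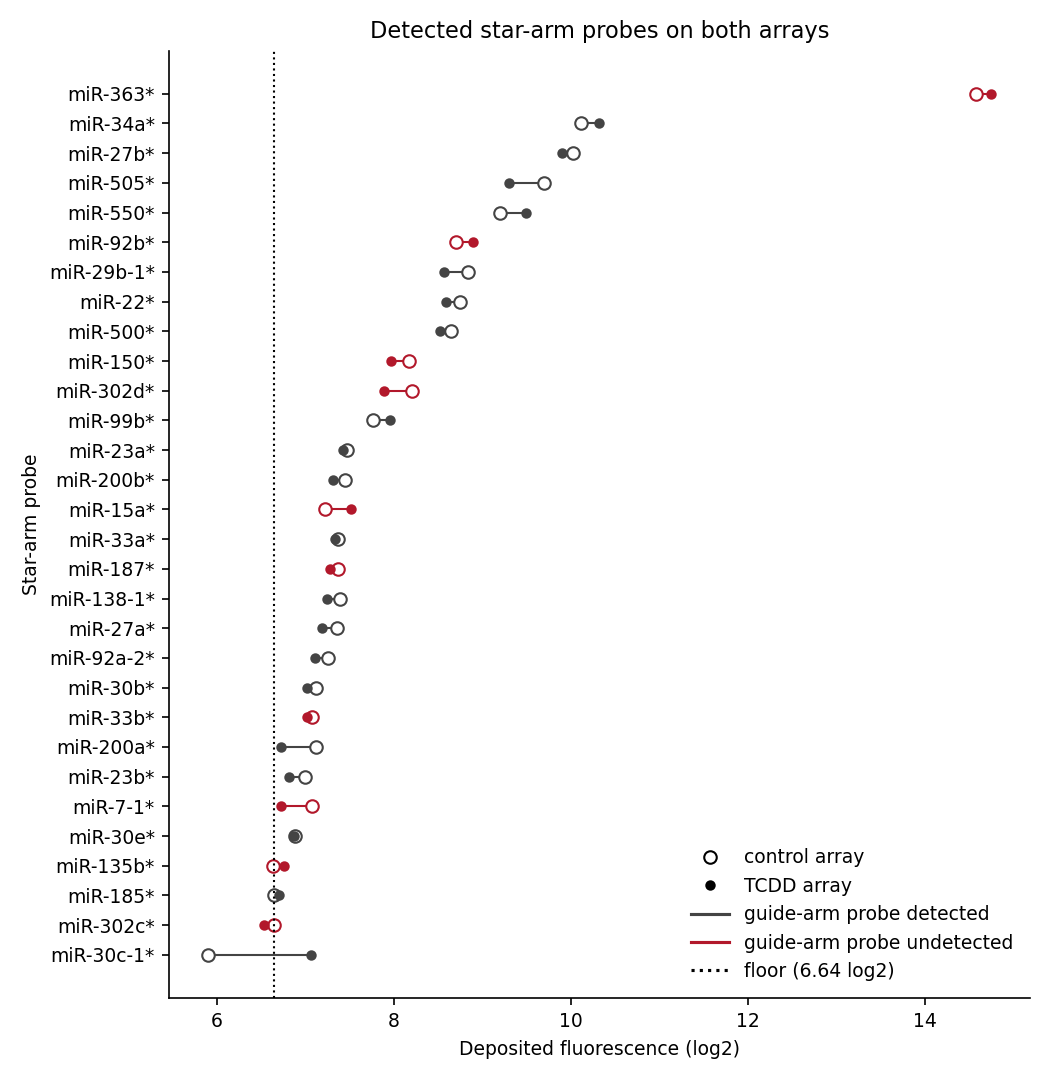
Deposited log2 fluorescence (horizontal axis) of the 30 detected star-arm probes (vertical axis) on the control array (open circles) and the TCDD array (filled circles), with lines joining the values of 1 probe and the floor dotted. miR-363* stands apart at 14.58 and 14.75, and most others lie between the floor and 10.

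Most detected star arms were near the floor. By the higher of the 2 arrays, 19 of the 30 were under 8, 8 were from 8 to 10, and 3 were above 10, namely miR-363*, miR-34a* and miR-27b*. No star arm was at least 2-fold higher or lower on the TCDD array. Over all 242 detected names, 0.413% were at least 2-fold higher and 2.48% at least 2-fold lower. At 1.5-fold the count of star arms was still 0 in both directions, with 3.31% of all detected names higher and 4.13% lower. In 26 of the 30 the arrays were less than 1.25-fold apart. The differences ran from -0.40 to 0.42.

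As a yardstick, the log2 differences over names detected on both arrays had a robust SD of 0.28, a spread between probes and not between replicates. A total of 7 of the 30 star arms lay at or beyond it (23.3%), against 35.1% of all detected names. These were miR-505*, miR-200a*, miR-7-1* and miR-302d* below 0, and miR-30c-1*, miR-15a* and miR-550* above 0. miR-505* was at 9.70 in control and 9.30 on the TCDD array, 1.32-fold lower. miR-550* was at 9.20 and 9.49, 1.22-fold higher. These 2 are the members of the 7 furthest above the floor.

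miR-30c-1* had the largest difference upward, and it was set by the floor. It was at 5.90 in control, under the floor, and 7.07 on the TCDD array, so it was at least 1.34-fold higher. Without a floor its difference would be 1.16, past 2-fold, but that rests on a dim control value. Its near copy miR-30c-2* was undetected at 5.86 and 6.0. The sequences agree at 19 of 22 positions counted from the 5′ end and have the same seed, and they are shown because 1 probe was detected and the other was not.
miR-30c-1*: cUGGGAGAggguuguuuacucc
miR-30c-2*: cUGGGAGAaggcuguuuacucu
The miR-30 family is broadly expressed and abundant in liver. Its hairpins for miR-30c-1 and miR-30e both lie within the span of NFYC, and miR-30e* was at 6.88 on both arrays. miR-30b* was at 7.12 and 7.02. miR-30a* and miR-30d* were undetected, so 3 of the 6 star arms of this family were detected. The differences of miR-30e* and miR-30b* were -0.005 and -0.10, within the robust SD of 0.28. Only miR-30c-1*, whose difference was set by the floor, lay beyond it.

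Of the detected star arms 21 had differences below 0 and 9 above, while of all detected names 50.4% were below 0 and 49.6% above. Their median was -0.09, beside -0.003 over all detected names. The star arms were also dimmer, with a median level of 7.38 over those detected on both arrays, against 8.99 over all such names, and the difference moved with level across the whole array. In the dimmest of 4 level bins of names detected on both arrays the median difference was -0.10 for the 15 star arms and -0.01 for the other names. In the next bin it was -0.15 for 7 star arms and -0.12 for the others. In the third it was 0.04 for 4 star arms and 0.02 for the others, and in the brightest miR-363* was the 1 star arm. With the level trend removed, 18 of the 30 were below 0 and the median was -0.04. The part of signal level in the lean was not tested further.

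**Figure D3:**
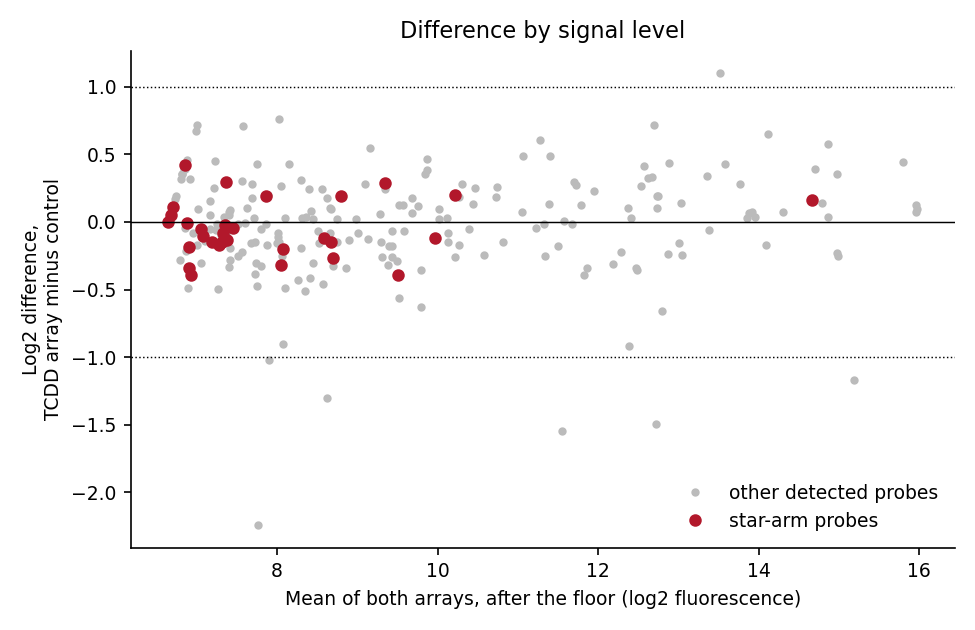
Log2 difference (vertical axis, TCDD array minus control) against the mean log2 fluorescence of both arrays after the floor (horizontal axis), for the 30 star-arm probes (red) and the other 212 detected names (grey), with dotted lines at 2-fold. All 30 star arms lie between -0.40 and 0.42.

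In the 20 hairpins with both arms detected, the difference of a star arm said little about that of its guide. They lay on the same side of 0 in 7 pairs, with 6 both below and 1 both above, and on opposite sides in 13. In 9 of the 13 the star was below 0 and the guide above it. The Pearson r across the 20 pairs was -0.07 and the Spearman rho 0.02, given as a description over probes that share the same 2 arrays. The sides were not stable between settings. With the level trend removed, 12 pairs were on the same side, and after quantile normalization 11 were. The median size of the gap between the 2 differences was 0.23, and in 8 pairs it was over the robust SD of 0.28. That SD describes differences of single probes. A gap combines 2 of them and would spread more widely, so 0.28 is a low bar for it.

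The 8 pairs with wider gaps all had arms on opposite sides of 0, but not under every setting. The sizes of opposite differences add up in a gap, so wide gaps favour such pairs. After quantile normalization the arms of miR-185 were both below 0 (-0.09 for the star, -0.24 for the guide). Those of miR-550 were then both above 0 (0.34 and 0.06), as with the level trend removed (0.32 and 0.05). With the floor at the 75th percentile those of miR-505 were both below 0 (-0.40 and -0.03). For miR-138-1, a hairpin of a miRNA known from synapses, the star was at 7.39 in control and 7.24 on the TCDD array. The guide probe, which also reads miR-138-2, was at 8.89 and 9.44, so the differences were -0.15 and 0.55. For miR-200a, which keeps epithelial identity by repressing ZEB1 and ZEB2, the star was at 7.12 and 6.73 and the guide at 11.56 and 11.85, differences of -0.39 and 0.30. The guide probe of miR-30c-1*, which also reads miR-30c-2, was at 13.16 and 12.92. Its difference was -0.24, against a bound of 0.42 for the star. miR-505 had 7.37 and 7.46 for its guide, a difference of 0.09 against -0.40 for the star.

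The other 4 wide gaps were smaller. miR-500* was at 8.64 and 8.52 and its guide at 8.15 and 8.46, differences of -0.12 and 0.31. The miR-500* sequence shares 20 of its 22 bases in a row with miR-502-3p, and what its probe reads was not tested. miR-185* was at 6.65 and 6.70, right at the floor, and its guide at 12.03 and 11.69. miR-99b*, from a hairpin that neighbours let-7e and miR-125a, was at 7.76 and 7.96, and its guide at 11.59 and 11.41. The guide probe of miR-550* was at 7.86 and 7.85, a difference of -0.01. These gaps have no replicate to set them against.

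**Figure D4:**
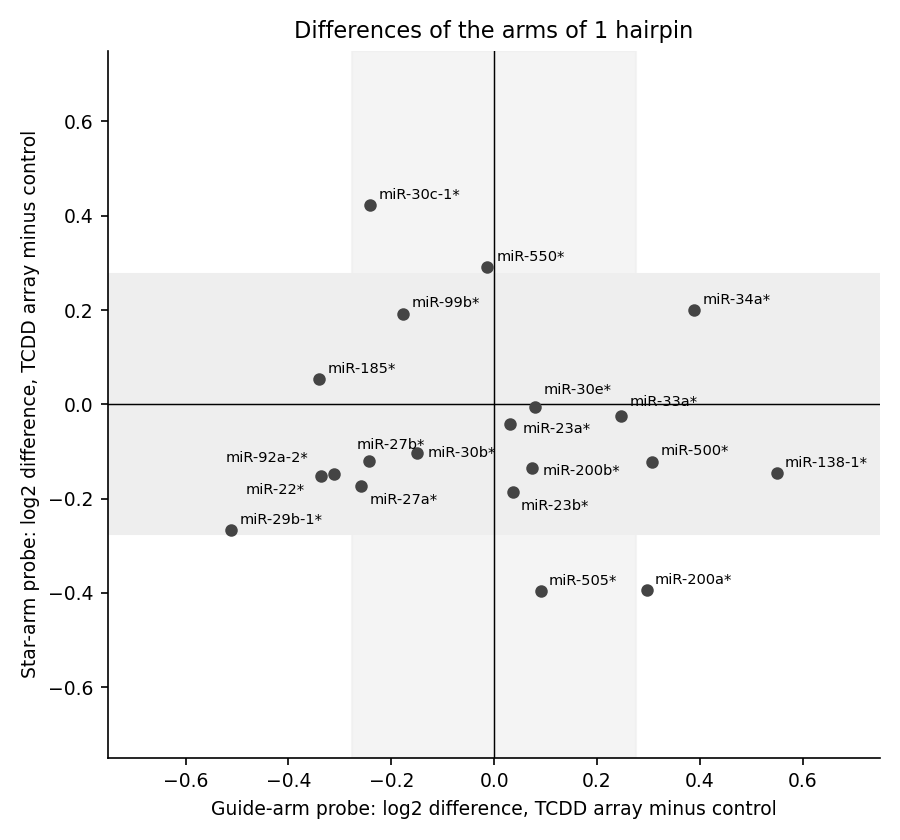
Log2 difference of the star-arm probe (vertical axis) against that of its guide-arm probe (horizontal axis), both TCDD array minus control, for the 20 hairpins with both arms detected, with bands of 1 robust SD (0.28) about 0. The points are spread over all 4 quadrants, with 1 point, miR-34a*, where both are above 0.

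The star arms of miR-23a, miR-23b, miR-27a and miR-27b were all detected, 4 of 4. They lie in broadly expressed clusters shared with miR-24, whose star arms were not analysed here, with miR-23b and miR-27b within the span of AOPEP on chromosome 9 and miR-23a and miR-27a within MIR23AHG on chromosome 19. miR-27b* was at 10.03 in control and 9.91 on the TCDD array, and its guide at 10.70 and 10.46. miR-27a* was at 7.36 and 7.18, and its guide at 10.34 and 10.08. All 4 of these differences were below 0, from -0.26 to -0.12. miR-23a* was at 7.47 and 7.43 and miR-23b* at 7.0 and 6.81, while their guides were nearly level at 13.84 and 13.87 for miR-23a and 14.84 and 14.88 for miR-23b. The 4 star arms had a median of -0.15, within the robust SD.

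Only 2 seeds occurred in more than 1 detected star arm with a matched sequence, and they are shown with their capitals marking the seed.
miR-23a*: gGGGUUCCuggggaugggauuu
miR-23b*: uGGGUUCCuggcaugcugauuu
miR-200a*: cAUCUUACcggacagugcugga
miR-200b*: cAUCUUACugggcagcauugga
miR-23a* and miR-23b* have the same base at 15 of 22 positions, and miR-200a* and miR-200b* at 17 of 22. miR-200b* was at 7.45 in control and 7.31 on the TCDD array, a difference of -0.14 beside -0.39 for miR-200a*. Their guides were at 0.07 and 0.30. miR-200c* and miR-141* were undetected.

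miR-34a is induced by p53, and its star was at 10.12 in control and 10.32 on the TCDD array, beside 14.50 and 14.89 for the guide. Both arms were above 0, by 0.20 and 0.39. miR-33a and miR-33b lie within SREBF2 and SREBF1, which encode regulators of sterol and fatty acid synthesis, and their guides repress the cholesterol exporter ABCA1. miR-33a* was at 7.36 and 7.34, and its guide at 7.09 and 7.34. miR-33b* was at 7.07 and 7.02, and its guide was under the floor at 6.38 and 6.33. The star arms of this pair differed between arrays by 0.05 or less.

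miR-29b-1* and miR-22* were lower together with their guide probes. The miR-29b probe is named without a copy number, so it need not read the miR-29b-1 hairpin alone. miR-29b, which represses collagen genes, was at 8.60 in control and 8.09 on the TCDD array, and its star at 8.83 and 8.57, differences of -0.51 and -0.27. miR-22* was at 8.74 and 8.59 and its guide at 12.64 and 12.30, differences of -0.15 and -0.34. miR-92a-2* at -0.15 and the miR-92a probe at -0.31 had the same direction. In each of these 3 pairs the guide had the larger difference, except that after quantile normalization miR-92a was at -0.02 and miR-92a-2* at -0.13, and all lay within 1.5-fold.

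Detected guides, dim and bright, often had no detectable star. Of the 39 pairs with the guide alone, 22 had the star at the smallest value on both arrays. All 8 let-7 star arms were undetected, with a highest value of 6.21 for let-7b*, while all 7 of their guide probes were detected. The 3 star arms of miR-26 were undetected at 5.66 or less, although the miR-26a guide probe was at 14.80 and 15.15. miR-130a* and miR-130b* were undetected with both guides detected, and so were miR-148a* and miR-148b*, of which only the guide miR-148b was detected. The 11 star arms of the imprinted chromosome 14 cluster and their 11 guides were all undetected.

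Star-arm probes chosen here for hairpins on the hepatocyte, blood, neuron, fibroblast and smooth muscle, and endothelium lists gave no signal above the floor. The exception was miR-150* of the blood list. Star names of miR-192 and miR-194, the bright hepatocyte miRNAs, were left out by the rule that chose the probes and were not examined. miR-122*, the star of the main hepatocyte miRNA, was at 5.64 on both arrays. miR-9* and miR-126*, which are abundant in neurons and endothelium, were also at 5.64 on both, as were miR-223*, miR-144* and miR-155* of blood cells. miR-143* and miR-145* were undetected, with highest values of 5.88 and 5.66, although their guides were bright.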

How the data were processed

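Small RNAs of HepG2 were read on 2 arrays, 1 per group, labelled with Cy3 through a dye-bearing linker, per the labels' protocols. The authors deposited log2 fluorescence of a single channel; how the arrays were scanned, corrected for background and scaled is not given in the sources used here. Probe numbers were stripped and the repeated name averaged, which left 718 names from 719 probes. Star names were paired with guide names by removing the star and, where needed, the copy number, or through older names. The 5′ or 3′ arm of each star name was assigned from the catalogue's renaming and not from the files, and miR-550* was left unassigned. Members and lists were chosen with earlier results of these data known. The named probes are all detected star arms with their guides, undetected ones by family, and the 3 nearest to the floor on each side. No test was run, since each group had 1 array, which limits the precision. Other settings tried were centring on the median, quantile normalization, a lowess correction for level (fraction 0.5), leaving out the floor, raising it to the 75th percentile of each array, adding it before log2, and thresholds of 1.5-fold and 3-fold. The code was tested on simulated data. The lowess fit used statsmodels 0.14.6 and the tables pandas 2.3.3, under Python 3.11.15.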

Additional observations from a re-analysis of the deposited data

How the results depend on the processing

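The count of star arms at least 2-fold apart was 0 in both directions under every setting run except with no floor, where miR-30c-1* gave 1 higher at 1.16. The number detected was 30, and 13 with the floor at the 75th percentile. The median difference of -0.09 was -0.041 with the level trend removed and -0.057 with the floor added, and lay between -0.12 and -0.07 under the other settings. Of 163 star-arm values under alternatives, 162 stayed within 1 robust SD (0.28) of the reported one. Of 119 guide-arm values 118 did, and the exception was miR-92a at -0.02 after quantile normalization. These counts are a weak check, because 23 of the 30 reported star-arm differences were themselves under 0.28. Some settings could also move few values. Leaving out the floor changes only probes with a value under it, and median centring moved no star arm by more than 0.0135. Signs changed for 4 star arms after quantile normalization (miR-363*, miR-185*, miR-23a* and miR-33a*). They changed for 3 with the trend removed (miR-23a*, miR-30e* and miR-33a*) and 1 with median centring (miR-30e*). Among the guides, miR-200b, miR-23a and miR-550 changed sign both after quantile normalization and with the trend removed. The guide miR-23b did so with the trend removed, and miR-505 with the floor at the 75th percentile. No paired analysis was possible because a single array stands for each group, which also leaves no replicate to omit. Signal over background limits the group: 99 of 129 star arms were at or under the floor on both arrays.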

Other observations

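The following values were picked out after they were seen and come with no test. Among the 29 detected star arms with an assigned arm, 13 of 15 from the 5′ side of the hairpin had differences below 0 (median -0.15), against 8 of 14 from the 3′ side (median -0.02). Of all detected names 50.4% were below 0. Some star arms lay near 0, such as miR-302c* at -0.003 (5′ side) and miR-30e* at -0.005 (3′ side). Some changed sign between settings, such as miR-23a* (5′ side) and miR-33a* (3′ side). The 5′ group also holds related members such as miR-23a* and miR-23b*. Among star arms matched to a RefSeq sequence, detected ones came from the 5′ side in 53.8% of 26 cases, and undetected ones in 33.7% of 92. Their median GC content was 50% when detected and 45.5% when undetected. A first base of U was present in 2 of the 26 detected star arms and in 18 of their 26 guides. Among undetected star arms it was present in 16 of 92, and in 60 of their 85 guides with a sequence.

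The signal of miR-363* beside a guide at the smallest value is a feature to look at again in other data. Its sequence shares no more than 8 bases in a row with any of the other mature sequences in the RefSeq table, which holds 2351 distinct ones. By the same measure miR-92b* shares at most 9, miR-302d* 13 (with miR-302b-5p), miR-30e* 17 (with miR-30a-3p, whose own star-named probe was undetected at 5.73 and 5.64) and miR-500* 20. Probe sequences were not used here, so what each probe binds was not tested.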
